A study of Mus musculus with 2 samples.

Results

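Sparse spots were the listed tissue spots of 4 skin sections that held fewer than 200 unique molecular identifiers (UMIs, each counting 1 captured probe molecule). There were 1001 of them among 3175 spots, or 31.5% of the spots with 1.91% of the UMIs. They were chosen by their total UMI count, summed over the spots of each section and set against the section's other spots, those with 200 UMIs or more. All values that compare the summed genes of sparse and other spots are therefore a description of the chosen spots and carry no test.

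The study asked how retinoids act on skin photoaged by ultraviolet radiation (UVR). It used female SKH-1 mice, a hairless strain, 10 to 12 weeks old, and frozen sections on Visium slides, on which barcoded spots capture the probes hybridised to the tissue above them. The control section was normal skin without UVR, the UVR section was irradiated skin, and the retinol and 9-cis HPR sections were irradiated skin treated with 0.1% retinol or 0.03% 9-cis HPR. Each group was 1 section, and the labels do not give the number of animals, the vehicle or the UVR dose. UVR and control skin shared 1 capture area and the treated skins shared the other, so a difference across areas cannot be told apart from a difference between the areas. The labels call 1 section of each area upper and the other lower. Groups here follow the tissue image, and reading the labels on the spot grid instead would exchange the groups of each area.

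Skin is layered. The epidermis is a sheet of keratinocytes that divide at the base, move outward through suprabasal layers and end as the cornified layer, which is cross-linked from loricrin, filaggrin and small proline-rich proteins. Below it lies the dermis, in which scattered fibroblasts lay down collagen, with vessels, macrophages and antibody-secreting plasma cells between the fibres. Fat and a thin sheet of skeletal muscle lie deeper. A Visium spot covers a small region that can hold several cells of different types or part of 1, and in the summed spots fewer cells and less RNA per cell cannot be told apart.

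The control section held 126 sparse spots among 465, which is 27.1% (exact Clopper-Pearson 95% interval 23.1 to 31.4). In the UVR section 292 of 939 spots were sparse, or 31.1% (28.2 to 34.2). The retinol section had 243 among 787, or 30.9% (27.7 to 34.2), and the 9-cis HPR section 340 among 984, or 34.6% (31.6 to 37.6). The shares lay close together, and the control share was the lowest at this limit. With a limit of 300 UMIs it was 43.4%, above the 38.3% of UVR and the 40.3% of retinol skin. All intervals given here cover counting error only, since molecules of 1 section are not independent samples of a treatment.

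The sparse sums were shallow. They held 15747 UMIs in control, 28119 in UVR, 25929 in retinol and 37963 in 9-cis HPR skin, which was 4.61%, 1.09%, 1.80% and 2.95% of each section's UMIs. The median sparse spot held 134, 88.5, 100.0 and 111 UMIs from 105, 73, 83 and 88.5 genes, in the same order of sections. The median other spot held 527, 1641, 982 and 653 UMIs. Between 84.5% and 86.0% of the nonzero entries of sparse spots were a single UMI, and the largest count of any gene in a sparse spot lay between 22 and 27. The capture areas shared 430 spot barcodes and 23 of them were sparse in both. Barcodes are printed at fixed grid places, so the same barcode in both areas is no shared tissue.

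The limit of 200 UMIs cut a continuous range. Just inside it, from 150 UMIs, lay 48 control, 58 UVR, 55 retinol and 79 9-cis HPR spots, with medians of 135.5, 132.5, 136 and 128 detected genes. Just outside, below 250 UMIs, lay 42, 44, 46 and 65 spots with medians of 167, 165, 163.5 and 161 genes. In all, 7 spots were 1 UMI below the limit and 2 exactly on it.

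Sparse spots lay together in the tissue. Of the grid neighbours of a sparse spot, 59.6% were sparse in control, 67.6% in UVR, 69.4% in retinol and 70.1% in 9-cis HPR skin, against 14.2%, 13.7%, 13.4% and 15.2% of the neighbours of other spots. They formed 19 patches of touching spots in control, 19 in UVR, 10 in retinol and 16 in 9-cis HPR skin. In the retinol section 229 of the 243 formed 1 patch, whereas the largest patch held 50, 85 and 104 spots in the control, UVR and 9-cis HPR sections. Sparse spots were not mainly those at the rim of the tissue. The share on the tissue edge was 34.1%, 22.6%, 3.29% and 17.9% of sparse spots against 36.9%, 19.5%, 27.4% and 15.5% of other spots.

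**Figure D1:**
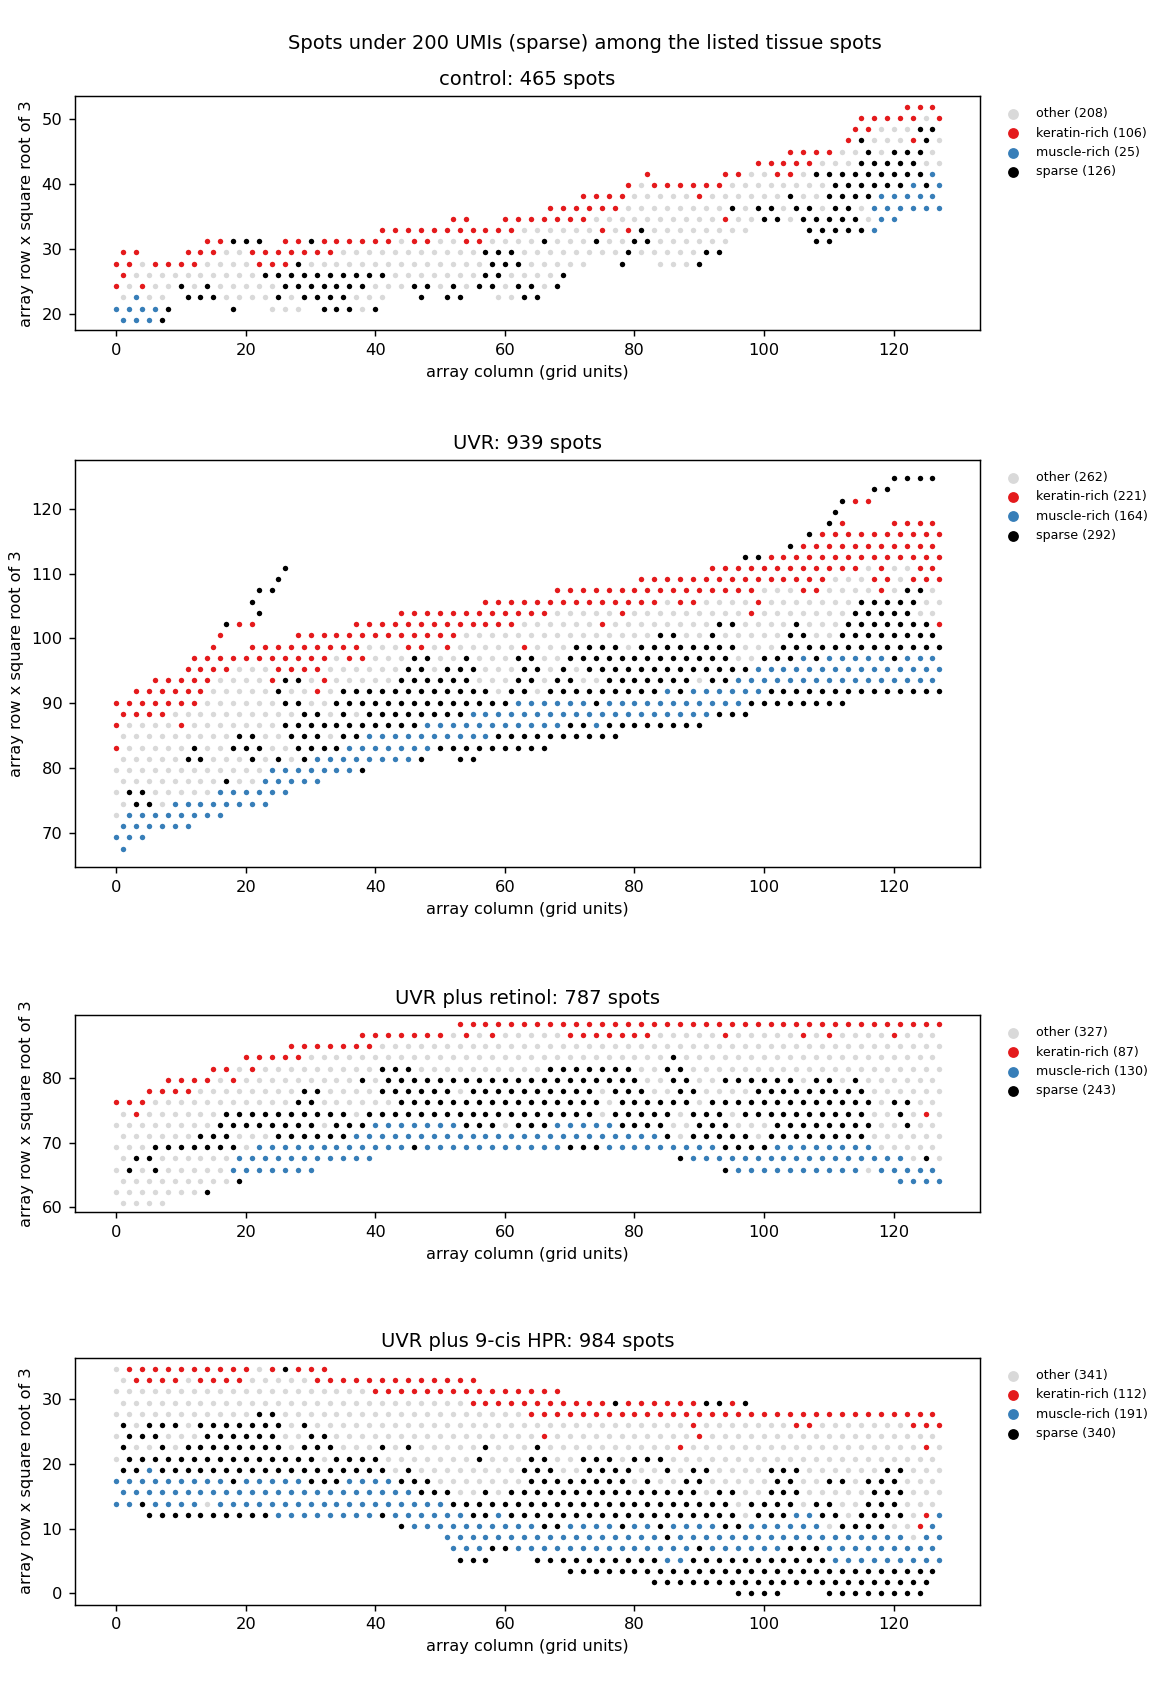
Map of the spots of the 4 sections by array column and array row (row spacing drawn to scale), with sparse spots in black, keratin-rich other spots in red, muscle-rich other spots in blue and the remaining spots in grey. Sparse spots form connected patches, in the irradiated sections mostly between the red and the blue layers and, in UVR and 9-cis HPR skin, also past the blue layer.

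The layer that sparse spots occupied was read from the other spots around them, without use of the sparse spots' own genes. An other spot was called keratin-rich where at least 8% of its UMIs came from the keratinocyte lists (basal, suprabasal, cornified, and stress keratins with small proline-rich genes), and muscle-rich where at least 8% came from a skeletal muscle list. The nearest keratin-rich spot was a median of 3, 4, 6 and 7 grid steps from a sparse spot in control, UVR, retinol and 9-cis HPR skin, against 2, 4, 4 and 4 steps for other spots that were not keratin-rich themselves. The nearest muscle-rich spot was 9.5, 2, 3 and 2 steps away from sparse spots and 15, 7, 7 and 7 steps from other spots that were not muscle-rich. By these medians sparse spots lay nearer to muscle-rich tissue in all 4 sections. They lay farther from keratin-rich tissue in control, retinol and 9-cis HPR skin, while both UVR medians were 4. The sides were not filtered alike, since sparse spots with 8% or more keratinocyte or muscle UMIs were kept. In UVR skin 23 sparse spots lay 1 step from a keratin-rich spot, 14 of them under 8% keratinocyte UMIs. For muscle these counts were 104 and 43, so the medians of the sides are not strictly comparable.

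Each spot was also placed between the keratin-rich and muscle-rich spots within 8 array columns of it. The band between both layers began above the 90th percentile row of the nearby muscle-rich spots. It ended at the median row of the nearby keratin-rich spots, where at least 3 were nearby. The band can therefore hold keratin-rich other spots. In UVR skin 221 other spots were keratin-rich, while 141 other spots in all lay at or past that median row. The band held 28 sparse spots in control, 197 in UVR, 211 in retinol and 211 in 9-cis HPR skin. They made up 43.8%, 37.2%, 43.2% and 36.2% of all spots in that band. In control skin 77 of the 126 sparse spots had fewer than 3 muscle-rich spots nearby and could not be placed on this axis. The tissue past the muscle held 4, 45, 2 and 95 sparse spots, and in UVR and 9-cis HPR skin nearly every spot there was sparse (97.8% and 96.9%). Only 4, 20, 0 and 5 sparse spots lay on the keratin side, at or past the median row of the nearby keratin-rich spots.

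Collagen and other fibroblast transcripts took a larger share of the UMIs in sparse spots than in other spots of every section. The list has 10 genes, among them Col1a1, Col1a2 and Col3a1, which encode the chains of the main fibrillar collagens, and Dcn, a collagen-binding proteoglycan. It held 125 of the sparse UMIs in control (0.794%), 196 in UVR (0.697%), 341 in retinol (1.31%) and 416 in 9-cis HPR skin (1.10%). In other spots its share was 0.196%, 0.0514%, 0.0884% and 0.166%. The sparse share was higher by 4.05-fold (3.32 to 4.91) in control, 13.6-fold (11.6 to 15.8) in UVR, 14.9-fold (13.2 to 16.8) in retinol and 6.59-fold (5.92 to 7.33) in 9-cis HPR skin. Per spot the order was the opposite, since a sparse spot held 0.992, 0.671, 1.40 and 1.22 of these UMIs and an other spot 1.88, 2.03, 2.30 and 3.23.

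Col1a2, on chromosome 6 at 4505618 to 4541543 of the GRCm38.p6 assembly, gave most of the collagen signal. It had 80, 97, 188 and 233 UMIs in the sparse sums of control, UVR, retinol and 9-cis HPR skin, seen in 45, 67, 109 and 130 spots. Its level was 5080 CPM (UMIs scaled to a common library total) in the sparse against 1046 CPM in the other spots of control skin, a 4.86-fold (3.76 to 6.21) difference. In retinol skin it was 7251 against 504.6 CPM, 14.4-fold (12.2 to 16.9), and in 9-cis HPR skin 6138 against 991.3 CPM, 6.19-fold (5.36 to 7.13). With Col1a2 left out, the fibroblast list remained higher in the sparse sums, by 3.13-fold in control, 16.0-fold in UVR, 15.6-fold in retinol and 7.18-fold in 9-cis HPR skin. Col3a1, the chain of type III collagen, had 19, 50, 99 and 122 sparse UMIs.

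Plasma cell transcripts followed the same direction. The list holds Igha and Ighm, constant regions of the IgA and IgM heavy chains, Igkc, the kappa light chain, Jchain, which joins IgA and IgM into polymers, and Mzb1, an endoplasmic reticulum protein of antibody-secreting cells. It had 42, 180, 107 and 197 UMIs in the sparse sums of control, UVR, retinol and 9-cis HPR skin, which is 0.267%, 0.640%, 0.413% and 0.519%. Its share was 2.96-fold (2.09 to 4.10), 21.4-fold (18.1 to 25.2), 22.5-fold (17.8 to 28.4) and 12.4-fold (10.5 to 14.6) that of the other spots. With a limit of 100 UMIs the control ratio turned to 0.479. Igha, on chromosome 12 at 113256204 to 113260236, made up 33, 159, 89 and 175 of these UMIs and was seen in 15, 61, 51 and 72 sparse spots. The remaining plasma cell genes were higher too, by 3.65-fold, 24.2-fold, 51.7-fold and 18.6-fold without Igha. In all sections a sparse spot held fewer plasma cell UMIs than an other spot, at 0.333 against 0.867, 0.616 against 1.18, 0.440 against 0.476 and 0.579 against 0.812.

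Fat cell transcripts were few but stood far above their level in other spots. The adipocyte list, with Cfd, which encodes the secreted protease adipsin, and Fabp4, a fatty acid carrier, had 27 sparse UMIs in control, 29 in UVR, 70 in retinol and 60 in 9-cis HPR skin. Its share was 6.66-fold (4.15 to 10.4), 20.9-fold (13.5 to 31.6), 36.7-fold (26.7 to 50.2) and 25.7-fold (18.0 to 36.4) that of other spots. In the retinol and 9-cis HPR sections a sparse spot even held more of these UMIs than an other spot, at 0.288 against 0.191 and 0.176 against 0.120. In control and UVR skin it held fewer, at 0.214 against 0.248 and 0.0993 against 0.195.

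Vessel, blood and macrophage transcripts were higher in share as well. The macrophage and dendritic list, led by Cd74, the invariant chain of class II antigen presentation, had 51, 42, 63 and 77 sparse UMIs and stood 2.75-fold (2.01 to 3.69), 9.19-fold (6.52 to 12.6), 4.97-fold (3.78 to 6.44) and 3.87-fold (3.02 to 4.91) higher in control, UVR, retinol and 9-cis HPR skin. The red blood cell list, led by the haemoglobin gene Hba-a2, had 11, 8, 35 and 46 UMIs and was 4.30-fold, 14.0-fold, 18.4-fold and 16.6-fold higher. Endothelial genes had only 4, 10, 11 and 12 UMIs, with intervals that excluded equal shares in the irradiated sections and not in control (0.780 to 8.81). The sebaceous list had ratios of 1.13, 5.71, 9.75 and 10.97. Without Scd1, a fatty acid desaturase that fat cells also use, the ratios were 0.367, 1.72, 1.44 and 2.91, with intervals that included 1 in the irradiated sections and not in control (0.118 to 0.867).

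Several defining markers were hardly seen. No mast cell UMI was found among the 107758 sparse UMIs, which allows a share of up to 0.00278%. The neutrophil, hair follicle, and T and NK cell lists had 3, 4 and 7 UMIs over all sparse spots, and the melanocyte and Schwann cell lists 18 and 32. These counts were too low to compare between sections.

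Keratinocyte transcripts showed the opposite direction. Together the keratinocyte lists held 615 sparse UMIs in control (3.91%), 1031 in UVR (3.67%), 402 in retinol (1.55%) and 1181 in 9-cis HPR skin (3.11%), against 9.00%, 13.04%, 7.06% and 7.86% in other spots. The sparse share was lower by 2.31-fold in control, 3.56-fold in UVR, 4.55-fold in retinol and 2.53-fold in 9-cis HPR skin. Of the 11, 15, 13 and 16 list genes deep enough to compare, 5, 14, 13 and 13 were at least 2-fold lower in sparse spots. Of all compared genes, 20%, 20.7%, 28.3% and 15.4% were so. The median log2 ratio of the list genes was -0.85, -1.93, -2.29 and -1.44, where all compared genes had medians of -0.16, -0.29, -0.48 and -0.25. The minimum for a comparison follows a gene's total, which comes mostly from other spots. It admits genes high in other spots more readily, so these and other counts of compared genes lean toward lower. A sparse spot held 4.88, 3.53, 1.65 and 3.47 keratinocyte UMIs, and an other spot 86.6, 516, 184 and 153.

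The direction depended on whether the epidermis itself was counted. When keratin-rich spots and all spots within 2 steps of them were left out on both sides, an alternative chosen after seeing the data, the ratio turned to 2.02 in control, 2.34 in UVR, 1.07 in retinol and 1.77 in 9-cis HPR skin. This filter acts on the keratinocyte share that is then compared, so the turn follows in part from its construction.

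The lists of the epidermal layers did not all behave alike. Cornified layer genes were lower in the sparse sums of each section, with ratios of 0.289, 0.280, 0.231 and 0.365 in control, UVR, retinol and 9-cis HPR skin. Suprabasal genes had ratios of 0.422, 0.331, 0.131 and 0.543, and basal genes 0.647, 0.359, 0.241 and 0.460. Without Krt5 the basal ratios were 1.05 (0.775 to 1.39), 0.294, 0.241 and 0.388, so in control skin the lower basal share rested on Krt5. Stress keratins and small proline-rich genes, which keratinocytes switch on after injury, were lower in the irradiated sections (0.196, 0.178 and 0.323) but 2.31-fold (1.83 to 2.89) higher in the sparse spots of control skin. There 87 UMIs made up the list, 46 of them from Sprr1b, a cornified envelope precursor. Sprr1b had 2921 CPM in the sparse and 999.7 CPM in the other spots of control skin, against 4196 and 23630 CPM in UVR skin.

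Skeletal muscle transcripts had no common direction. Their share of sparse UMIs was 1.40% in control, 4.23% in UVR, 2.31% in retinol and 2.06% in 9-cis HPR skin. This was 3.32-fold lower than in other spots of control skin, but 1.11-fold (1.05 to 1.18), 1.215-fold (1.12 to 1.32) and 1.49-fold (1.38 to 1.60) higher in the irradiated sections. None of the 9 to 11 compared muscle genes of the UVR and retinol sections passed 2-fold in either direction. Of all genes compared there, 4.84% and 5.06% were higher and 20.7% and 28.3% lower. In 9-cis HPR skin 1 of 9 muscle genes was higher, against 5.07% of all compared genes. All 8 compared in control skin were at least 2-fold lower, against 20% of all genes compared there. With every spot weighted alike, the ratio in the irradiated sections was 0.601, 0.441 and 0.540, below 1 throughout.

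The fibroblast share was followed across the limit. In UVR skin the fibroblast share was 0.668%, 0.550%, 0.689% and 0.820% in the classes that start at 0, 50, 100 and 150 UMIs, then 0.886% and 0.698% in those that start at 200 and 250 UMIs. It was 0.442% in the class from 500 UMIs and 0.0272% from 1000 UMIs upward. In retinol skin it was highest in the shallowest spots, at 2.11% under 50 UMIs and 1.21% from 150 UMIs to the limit, and 0.778% just outside the limit. In 9-cis HPR skin the share was 0.317% under 50 UMIs and 1.13%, 1.07% and 1.16% in the next classes.

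Other spots limited to those under 500 UMIs, a comparison added after seeing the data, differed less from sparse spots. The ratio of the fibroblast share in UVR skin was then 0.945, and no gene passed 2-fold in the same direction in all 4 sections. The plasma cell and macrophage lists were then higher in 2 sections each and the red blood cell list in 1. The pooled keratinocyte list was lower in 2 sections.

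Plasma cell transcripts thinned out in the shallowest spots. In UVR skin their share was 0.238%, 0.341%, 0.713% and 0.890% from the lowest to the highest class of sparse spots and 1.05% just outside the limit. In 9-cis HPR skin no plasma cell UMI was seen in the 24 spots under 50 UMIs, and the next classes had 0.294%, 0.548% and 0.672%. Skeletal muscle showed the other order in control and 9-cis HPR skin, with 4.70% and 3.91% under 50 UMIs against 1.59% and 1.81% from 150 UMIs to the limit. In UVR skin muscle was at 4.72% and 3.03% in these classes. In retinol skin it was at 2.29% and 2.33%.

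Across the whole gene list, between 255 and 572 genes per section were deep enough to compare, meaning that at equal composition at least 10 UMIs were expected in the sparse sum. A gene was counted where its CPM differed at least 2-fold with a 95% interval that excluded 1. In control skin 13 of 255 genes (5.1%) were counted as higher and 51 (20%) as lower in sparse spots. The UVR section had 21 of 434 (4.84%) higher and 90 (20.7%) lower. In retinol skin 22 of 435 (5.06%) were higher and 123 (28.3%) lower, and in 9-cis HPR skin 29 of 572 (5.07%) and 88 (15.4%). These counts come from the contrast that chose the spots and are a description. The minimum follows a gene's total, so many collagen, plasma cell and adipocyte genes were outside it: Col1a2 was not compared in UVR skin, and Igha in neither UVR nor retinol skin.

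Of the 232 genes compared in all 4 sections, 32 were higher and 81 lower in each of them. Past 2-fold in all 4 were 5 higher genes (Actb, Car3, Igfbp7, Tmsb4x and Tnfaip2) and 11 lower genes, among them Calm4, Dmkn, Lor, Lypd5 and Nccrp1. With every spot weighted alike no gene passed in all 4 sections in either direction, and with a limit of 100 UMIs 0 higher and 3 lower genes did. Every compared gene that was higher was so in its share only. Not 1 compared gene had as many UMIs per sparse spot as per other spot in any section. This follows largely from the choice of spots by few UMIs and from the minimum, which no gene of the adipocyte list met. That list as a whole did hold more UMIs per sparse spot in retinol and 9-cis HPR skin.

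**Figure D2:**
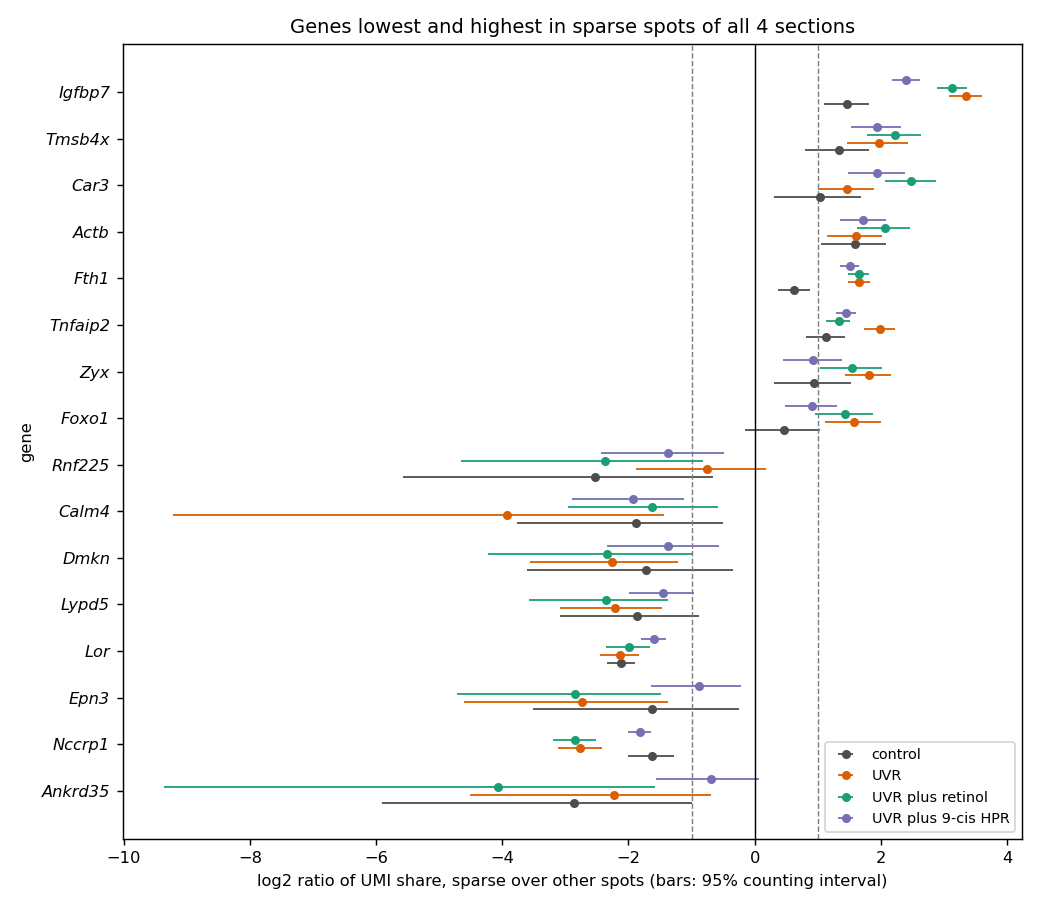
Log2 ratio of CPM, sparse over other spots (x axis), for the 8 genes with the highest and the 8 with the lowest median over the sections among those of 1 direction in all 4, with 1 point per section and 95% exact intervals as bars. Igfbp7 stands highest, with a median of 2.76, and all 4 points of each gene lie on 1 side of 0.

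Igfbp7, a secreted protein of vessel walls and connective tissue that binds insulin-like growth factors, was the highest of the genes compared everywhere. The gene lies on chromosome 5 at 77349240 to 77408045. It had 75, 140, 179 and 194 UMIs in the sparse sums and was seen in 42, 86, 101 and 109 sparse spots of control, UVR, retinol and 9-cis HPR skin. Its level was 4763, 4979, 6903 and 5110 CPM in sparse spots and 1730, 490.5, 788.0 and 969.7 CPM in other spots. The sparse levels lay within a narrow range, whereas those of other spots differed by section. The ratios were 2.75 (2.13 to 3.51), 10.2 (8.46 to 12.1), 8.76 (7.44 to 10.3) and 5.27 (4.50 to 6.14).

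The other genes highest in all sections had varied roles. Tmsb4x, which encodes the actin-binding peptide thymosin beta 4, had 38, 39, 50 and 60 sparse UMIs and ratios of 2.51, 3.92, 4.68 and 3.82. Actb, cytoplasmic actin, had ratios of 3.005, 3.03, 4.17 and 3.30. Fth1, the ferritin heavy chain, was the most abundant of the group with 146, 270, 316 and 389 sparse UMIs and ratios of 1.54, 3.14, 3.14 and 2.84. Car3, a carbonic anhydrase abundant in muscle and fat, had ratios of 2.04, 2.75, 5.56 and 3.85. Tnfaip2, a gene induced by tumour necrosis factor, had 98, 140, 242 and 341 sparse UMIs and ratios of 2.20, 3.96, 2.51 and 2.73. Against other spots of under 500 UMIs the median log2 ratios of Fth1 and Tnfaip2 turned to -0.064 each. Without the keratin-rich spots and their surroundings that of Car3 turned to -0.61. The housekeeping list, which includes Actb and Fth1, was 1.77-fold, 3.18-fold, 3.24-fold and 2.82-fold higher in share.

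The lowest median of all belonged to Ankrd35, with 2, 3, 1 and 14 sparse UMIs against 301, 1287, 913 and 741 in other spots. Lor, which encodes loricrin, the main protein of the cornified envelope, lies on chromosome 3 at 92080271 to 92083142. It had 174, 87, 69 and 221 sparse UMIs against 15605, 34659, 15019 and 22104 in other spots, and was lower by 4.33-fold (3.73 to 5.06), 4.38-fold (3.55 to 5.47), 3.99-fold (3.15 to 5.13) and 3.04-fold (2.66 to 3.48). Nccrp1 had 66, 71, 73 and 231 sparse UMIs and was lower by 3.10-fold, 6.79-fold, 7.21-fold and 3.54-fold. Dmkn, a secreted protein of the suprabasal layers, had 4, 7, 4 and 12 sparse UMIs and was lower by 3.28-fold, 4.77-fold, 5.08-fold and 2.60-fold. When the keratin-rich spots and their surroundings were left out, the median log2 ratios of Ankrd35, Lor and Nccrp1 turned to 1.36, 1.875 and 1.74. The filter removes spots by their keratinocyte share, which these genes can follow.

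Each section also had its own extremes. In control skin Cst6, a protease inhibitor of the epidermis, had 35 sparse UMIs and a 3.24-fold (2.20 to 4.63) higher level, while Ttn, the giant protein of muscle sarcomeres, had 1 sparse UMI against 317 and was 15.3-fold lower (2.73 to 606.5). Mylpf, a myosin light chain of fast muscle, had 5 against 640 and was 6.18-fold lower (2.63 to 19.1). In UVR skin Lpgat1, an enzyme of phospholipid metabolism, was 5.10-fold (3.78 to 6.74) higher with 52 UMIs. Calm4, a calmodulin-like protein of the epidermis, had 1 UMI there against 1380 and was 15.2-fold lower (2.72 to 599.5).

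In the treated sections, collagen genes were among those far higher in sparse spots. Col5a1, a chain of type V collagen, was 4.98-fold (3.75 to 6.503) higher in retinol skin with 59 UMIs, and Ndufaf8, an assembly factor of respiratory complex I, was at 0 of 25929 sparse UMIs against 578 in other spots, at least 3.53-fold lower. In 9-cis HPR skin Igha was 11.9-fold (9.96 to 14.2), Col3a1 7.59-fold (6.18 to 9.26) and Igfbp5, another binding protein of insulin-like growth factors, 5.30-fold (3.92 to 7.04) higher. Prdx5, a peroxidase, had 1 UMI against 346 and was 10.5-fold lower (1.87 to 416).

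The most abundant genes of sparse spots were not those that set them apart. Over all sections Ptms, a small acidic nuclear protein, had 2905 sparse UMIs (2.70%) and Jup, plakoglobin of the junctions between cells, 2635 (2.44%). They were followed by Pdia3 with 1881, Fth1 with 1121, Krt5 with 1086 and the muscle creatine kinase gene Ckm with 868. Krt5, the keratin of basal cells, had 148, 388, 153 and 397 sparse UMIs and was seen in 83, 175, 87 and 200 sparse spots. Its level there was lower by 1.75-fold, 2.58-fold, 4.15-fold and 2.08-fold than in other spots. Jup was lower by 1.99-fold, 3.05-fold, 4.26-fold and 2.83-fold, while Ptms was 1.17-fold, 1.90-fold, 1.65-fold and 1.34-fold higher. The 10 genes with the most UMIs over all sparse spots pooled, the same set in every section, held 12.8%, 11.4%, 11.9% and 13.8% of sparse UMIs. This same set held 16.1%, 15.6%, 17.3% and 18.8% of the UMIs of other spots.

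**Figure D3:**
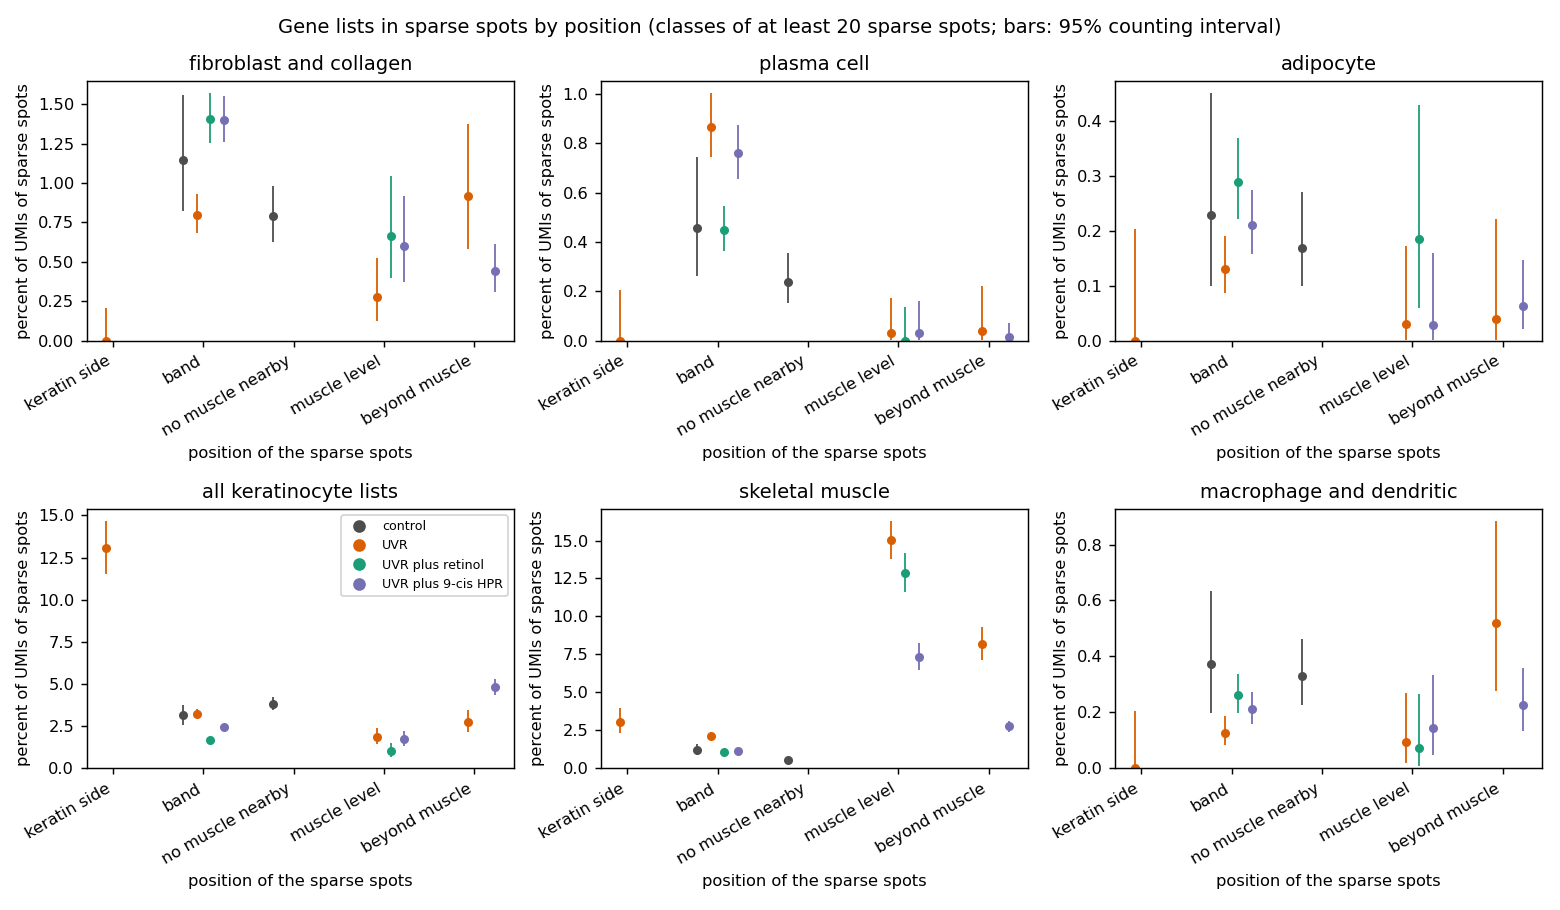
Share of sparse UMIs (percent, y axis) held by 6 marker lists in sparse spots by position relative to the keratin-rich and muscle-rich spots nearby (x axis), with 1 symbol per section, 95% exact intervals as bars and classes of under 20 sparse spots left out. Among the classes shown, plasma cell transcripts lie mostly in the band between both layers, at 0.866%, 0.449% and 0.759% in UVR, retinol and 9-cis HPR skin.

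Sparse spots differed among themselves by where they lay, and this position was not part of the rule. In the band between epidermis and muscle the plasma cell list had 16 UMIs in control, 178 in UVR, 98 in retinol and 195 in 9-cis HPR skin. At the level of the muscle and past it, it had 2, 2, 0 and 2. As a share of sparse UMIs this was 3.68-fold (0.866 to 33.0) higher in the band of control skin, 24.9-fold (6.79 to 207) in UVR and 43.5-fold (11.9 to 362) in 9-cis HPR skin. In retinol skin the 98 against 0 UMIs give 4.43-fold when the 0 is set to the floor of 3 counts, and the exact lower limit was 3.54. In UVR and 9-cis HPR skin nearly all plasma cell UMIs of sparse spots thus came from the band, which held 67.5% and 62.1% of the sparse spots. In retinol skin 98 of 107 did, where the band held 86.8% of the sparse spots. The rest lay in the 7 sparse spots without muscle nearby. The control counts were too low to tell.

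Collagen transcripts were less sharply placed. The fibroblast list took 3.07-fold (1.29 to 8.86) more of the sparse UMIs in the band than at and past the muscle in control, 1.43-fold (0.977 to 2.17) in UVR, 2.19-fold (1.38 to 3.68) in retinol and 2.87-fold (2.16 to 3.87) in 9-cis HPR skin. The interval of the UVR section included 1. There the 45 sparse spots past the muscle had a fibroblast share of 0.916%, close to the 0.798% of the band, and the 30 spots at muscle level 0.278%.

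Within the band alone, sparse spots still carried a larger collagen share than other band spots of under 500 UMIs in 3 sections. The ratios were 2.39 (1.42 to 4.08) in control, 1.91 (1.60 to 2.29) in retinol and 1.39 (1.20 to 1.60) in 9-cis HPR skin. In UVR skin the ratio was 0.864 (0.711 to 1.05). For the plasma cell list the same ratios were 3.55 (1.38 to 10.2), 2.24 (1.60 to 3.16) and 1.26 (1.04 to 1.53), and 1.03 (0.846 to 1.24) in UVR skin. At like position and near depth the sparse spots of UVR skin were thus not distinguishable in either list.

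Muscle transcripts in sparse spots were most abundant at the muscle level. There they took 7.63% of sparse UMIs in control, 15.0% in UVR, 12.8% in retinol and 7.33% in 9-cis HPR skin, below the 36.1%, 29.5%, 22.6% and 14.3% of the other spots at that level. Their share in the band was lower than at and past the muscle by 6.36-fold, 5.60-fold, 11.7-fold and 3.59-fold. Within the band, muscle took 1.17%, 2.15%, 1.06% and 1.16% of the sparse UMIs and 0.937%, 0.1503%, 0.0430% and 0.107% of those of other spots. The band ratio was 1.25 (0.874 to 1.76) in control, 14.3 (12.8 to 16.0) in UVR, 24.8 (20.9 to 29.3) in retinol and 10.75 (9.40 to 12.3) in 9-cis HPR skin. In the band the irradiated sparse spots thus held the larger muscle share, though the other band spots can include keratin-rich ones. Sparse spots that touched no other kind of spot had 1.98%, 1.87%, 0.656% and 0.857% muscle UMIs. Those that touched another kind had 1.33%, 4.73%, 2.76% and 2.43%, so in the irradiated sections the inner spots of the patches were lower in muscle.

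The few sparse spots on the keratin side were distinct. Their keratinocyte share was 12.5% in control (4 spots), 13.1% in UVR (20 spots) and 13.6% in 9-cis HPR skin (5 spots). None of them held a fibroblast or plasma cell UMI. In UVR skin this was 0 of 1807 UMIs, which allows a share of up to 0.166%, and the smaller sums of control and 9-cis HPR skin allow 0.485% and 0.369%.

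The spots past the muscle were the shallowest in control, UVR and 9-cis HPR skin, with medians of 30.5, 39 and 77 UMIs. In 9-cis HPR skin 95 such spots held 7962 UMIs, of which 35 were from the fibroblast and 1 from the plasma cell list. Their keratinocyte share was 4.80%, above the 2.44% of the band, although the band lies nearer to the epidermis. In the pooled comparison, the keratinocyte share of the band was 1.58-fold lower (1.40 to 1.79) than at and past the muscle in that section. It was 1.18-fold (0.821 to 1.72), 1.44-fold (1.20 to 1.76) and 1.70-fold (1.17 to 2.58) higher in the band of control, UVR and retinol skin.

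**Figure D4:**
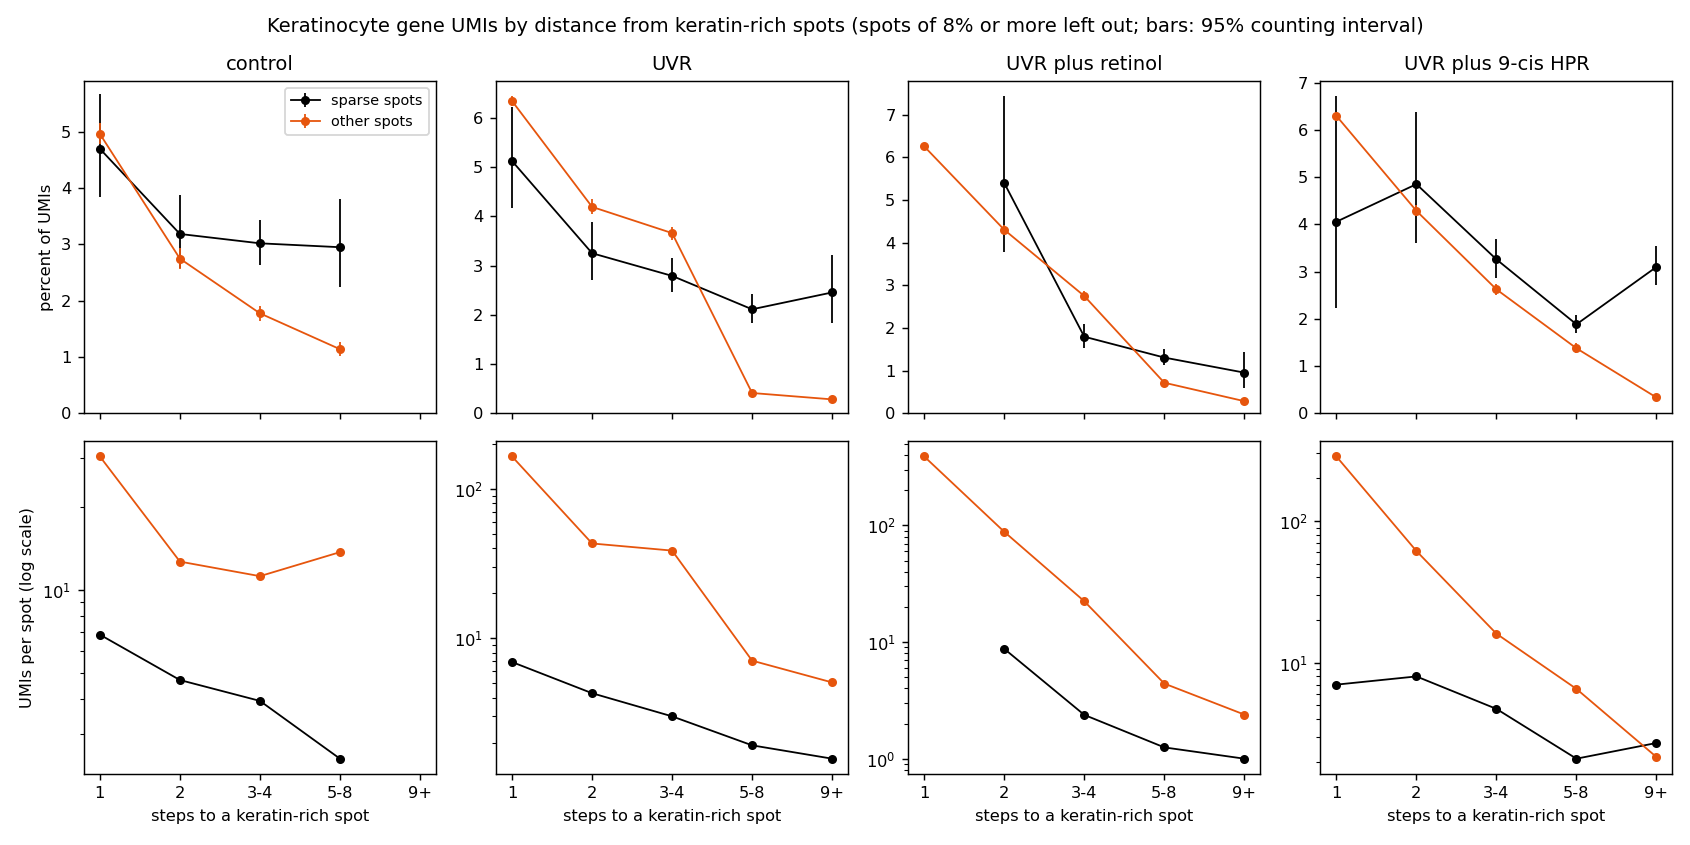
Keratinocyte transcripts in spots that are not keratin-rich by grid steps to the nearest keratin-rich spot (x axis), as percent of UMIs (top row) and as UMIs per spot on a log axis (bottom row), with sparse spots in black, other spots in orange and 95% exact intervals as bars. Far from the epidermis the share was higher in sparse spots, at 2.46% against 0.285% from 9 steps in UVR skin, while the number per spot was lower in 3 sections.

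Keratinocyte transcripts were found in sparse spots at every distance from the epidermis. Spots with 8% or more keratinocyte UMIs, sparse or other, were left out of this comparison. At 1 step from a keratin-rich spot the keratinocyte share was 4.70% in sparse and 4.96% in other spots of control skin, and 5.12% and 6.34% in UVR skin. From 3 to 4 steps the sparse share was higher in control (3.02% against 1.78%) and 9-cis HPR skin (3.26% against 2.63%) and lower in UVR (2.79% against 3.66%) and retinol skin (1.80% against 2.75%). From 5 to 8 steps it was 2.95% against 1.14% in control and 2.11% against 0.415% in UVR skin. From 9 steps on it was 2.46% (1.83 to 3.22) against 0.285% (0.227 to 0.355) in UVR, 0.957% (0.600 to 1.45) against 0.288% (0.248 to 0.332) in retinol and 3.10% (2.71 to 3.53) against 0.338% (0.300 to 0.379) in 9-cis HPR skin. The share fell off with distance far less in sparse than in other spots.

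In molecules per spot the picture was different. From 9 steps on a sparse spot held 1.56 keratinocyte UMIs in UVR skin and an other spot 5.06. In retinol skin the values were 1 and 2.39. In 9-cis HPR skin they were 2.71 and 2.16, the only section where the sparse spots had more. In control skin, where no spot lay that far, sparse spots at 5 to 8 steps held 2.44 and other spots 13.7. Muscle UMIs away from the muscle were likewise low per spot. In UVR skin sparse spots 5 to 8 steps from muscle-rich spots held 0.708 muscle UMIs and other spots 3.83, which was 0.481% and 0.102% of UMIs. Whether these counts came from the tissue under the spot or from molecules that moved before capture was not tested.

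The treatments were compared within the sparse spots, with 1 section per group and thus no replicate check. All comparisons with UVR skin share that section's sparse spots. Between sections a gene was compared where both sparse sums together held at least 20 UMIs. UVR over control had 44 of 398 genes (11.1%) at least 2-fold higher and 31 (7.79%) lower. Retinol over UVR had 20 of 477 (4.19%) higher and 28 (5.87%) lower. For 9-cis HPR over UVR 37 of 580 (6.38%) were higher and 31 (5.34%) lower, and for 9-cis HPR over retinol 20 of 570 (3.51%) and 24 (4.21%).

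Sparse spots of UVR skin held more muscle and plasma cell transcripts than those of control skin and fewer of the cornified layer. Muscle took 4.23% against 1.40%, 3.01-fold (2.61 to 3.49), and the position of the spots moved this value. In the band alone, a comparison added after seeing the data with 197 and 28 spots, it took 2.15% against 1.17%, 1.83-fold (1.33 to 2.59). Other spots of all positions had the opposite direction for muscle, with a ratio of 0.816. Plasma cell transcripts were 2.40-fold (1.71 to 3.44) higher, and 1.89-fold (1.13 to 3.38) in the band alone. Their ratio in other spots of all positions, not only of the band, was 0.332. The cornified layer list was 2.32-fold (1.93 to 2.79) and the suprabasal list 2.93-fold (1.90 to 4.56) lower, as in other spots (2.24-fold and 2.29-fold). In the band alone the cornified list was 2.78-fold lower, and the suprabasal list, with 22 against 7 UMIs, had a ratio of 0.534 whose interval (0.220 to 1.48) included 1.

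The fibroblast list did not separate these sparse spots, with a ratio of 0.878 (0.698 to 1.11), while it was 3.82-fold lower in the other spots of UVR skin. Stress keratins and small proline-rich genes were 1.732-fold (1.36 to 2.23) higher in sparse spots and 20.4-fold higher in other spots. In the band alone their ratio in sparse spots was 1.54, from 163 against 18 UMIs, with an interval that included 1 (0.943 to 2.66). The macrophage list was 2.17-fold (1.41 to 3.34) lower in sparse spots of UVR skin.

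The highest genes of UVR over control included 3 of muscle. Ankrd23, a protein of muscle sarcomeres, had 22 sparse UMIs in UVR and 0 in control skin. With the 0 set to the floor of 3 counts this was 4.11-fold higher, which is not an exact limit. Ttn had 28 against 1, a ratio of 15.7 (2.59 to 641.2), and Hspb6, a small heat shock protein of muscle, 90 against 7, 7.20-fold (3.35 to 18.4). Got2, a mitochondrial aspartate aminotransferase, had 24 against 2, a ratio of 6.72 (1.67 to 58.7). Lower were Cst6 with 8 against 35, 7.81-fold (3.56 to 19.5), and Krt10, the keratin of suprabasal cells, with 5 against 19, 6.79-fold (2.45 to 23.3). In the other spots Cst6 and Krt10 were lower by 6.63-fold and 7.45-fold.

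Retinol skin had fewer keratinocyte and more fat and collagen transcripts in its sparse spots than UVR skin. The keratinocyte lists took 1.55% against 3.67%, 2.37-fold lower (2.10 to 2.66), and were 1.85-fold lower in other spots. The fibroblast list was 1.89-fold (1.58 to 2.26) higher in sparse and 1.72-fold higher in other spots. Adipocyte genes were 2.62-fold (1.68 to 4.19) higher with 70 against 29 UMIs, and red blood cell genes 4.75-fold (2.16 to 11.8) higher with 35 against 8. The plasma cell list was 1.55-fold lower (1.21 to 1.99) and the muscle list 1.83-fold lower (1.66 to 2.02).

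The 4 highest genes of this comparison were Was, Cfd, Id3 and Scd1. Was, a regulator of the actin cytoskeleton in blood cells, had 25 sparse UMIs in retinol and 3 in UVR skin, a ratio of 9.04 (2.76 to 46.8). Cfd had 24 sparse UMIs in retinol and 3 in UVR skin, a ratio of 8.68 (2.63 to 45.0), and Scd1 47 against 13, 3.92-fold (2.09 to 7.90), against 2.50-fold and 3.10-fold in other spots. Id3, an inhibitor of basic helix-loop-helix factors, had 20 against 5, 4.34-fold (1.58 to 14.8). Crabp2, which carries retinoic acid to its receptors, had 3 UMIs against 17 and was 5.22-fold lower (1.51 to 27.8), and 1.64-fold lower in other spots. The list of retinoid binding, metabolism and receptor genes as a whole had 30 against 42 UMIs, a ratio of 0.775 (0.468 to 1.27) that did not separate the sections.

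In 9-cis HPR skin the sparse spots held more collagen and less muscle than those of UVR skin. The fibroblast list was 1.57-fold (1.32 to 1.87) higher, against 3.24-fold in other spots, and red blood cell genes 4.26-fold (1.99 to 10.5) higher with 46 against 8 UMIs. Muscle was 2.05-fold lower (1.87 to 2.25), led by Myh4, the fastest myosin heavy chain, with 59 against 322 UMIs, 7.37-fold lower (5.57 to 9.90). Cfd had 29 against 3, a ratio of 7.16 (2.22 to 36.7). The keratinocyte lists were 1.18-fold lower (1.08 to 1.28), while the cornified layer list was 1.33-fold (1.12 to 1.59) higher. The retinoid list had a ratio of 1.15 (0.766 to 1.732).

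The treated sections, which shared an area, differed in keratinocyte and fat transcripts. The keratinocyte lists took 2.01-fold (1.79 to 2.25) more of the sparse UMIs in 9-cis HPR than in retinol skin, and 1.505-fold (1.32 to 1.71) more in the band and the spots without muscle nearby. In other spots the ratio was 1.11. The suprabasal list was 5.01-fold (2.48 to 11.4) higher, with 66 against 9 UMIs, 33 and 3 of which were from Krtdap, a secreted protein of differentiating keratinocytes (7.51-fold, 2.36 to 38.3). Adipocyte genes were 1.71-fold lower (1.19 to 2.45) and the sebaceous list 3.46-fold lower (2.06 to 5.98), with 19 against 47 UMIs of Scd1. In the band alone the adipocyte difference was 1.37-fold with an interval that included 1 (0.940 to 2.015), and the sebaceous list was 2.41-fold lower (1.42 to 4.21).

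Lipe, hormone-sensitive lipase of fat cells, had 15 sparse UMIs in 9-cis HPR and 49 in retinol skin, 4.78-fold lower (2.64 to 9.18), where other spots were at 1.05-fold. Col5a2, a chain of type V collagen, had 5 against 21, 6.15-fold lower (2.26 to 20.9). The fibroblast list as a whole was 1.20-fold lower over all sparse spots, with 1.10% against 1.31%, and at a ratio of 0.9994 (0.858 to 1.17) in the band and the spots without muscle nearby. Plasma cell genes had a ratio of 1.26 (0.989 to 1.61) over all sparse spots and of 1.63 (1.28 to 2.08) in these positions.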

How the data were processed

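Per the submitters' processing notes, reads of both capture areas were processed with Space Ranger 2.0.0 on mm10, with Seurat 4.1.0 also named; their settings are not given in the sources used here. The labels describe frozen sections with a probe-based kit for fixed tissue. The deposited matrices hold raw UMI counts of 19465 genes in spots listed as over tissue, with 0 mitochondrial and 0 ribosomal protein genes. The matrices gave no normalized values. The 11 repeated symbols were kept as separate rows. Sections were split by pixel row.

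Counts were summed over the sparse and the other spots of each section with Python 3.11.15, numpy 2.4.6, scipy 1.17.1 and pandas 2.3.3, and compared as CPM ratios with exact Clopper-Pearson 95% intervals. No doublet call, clustering or test was made. Genes needed an expected count of 10 in the sparse sum, or 20 UMIs over both sums between sections; a count of 0 was set to a floor of 3 counts. Members and the 23 marker lists were chosen with earlier results of these data known. Named genes were the 8 highest and 8 lowest medians of 1 direction in all sections, the 4 highest and 4 lowest per section and per comparison past 2-fold, up to 3 leading genes of each list, and the 10 most abundant, of which the text gives a part. Other limits, scalings, filters, image sides and weights were tried, as were positions, shallow other spots and distance from keratin-rich spots, which were added after seeing the data. The ratio script was tested on simulated data. Gene positions are from RefSeq's GRCm38.p6 table.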

Additional observations from a re-analysis of the deposited data

Results flagged for a closer look

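Lists whose share in sparse over other spots moved in opposite directions in different sections, each with an interval that excluded 1, were taken as worth another look. Stress keratins and small proline-rich genes had a ratio of 2.31 in control skin and of 0.196, 0.178 and 0.323 in UVR, retinol and 9-cis HPR skin. Skeletal muscle had a ratio of 1.11 in UVR, 1.21 in retinol and 1.49 in 9-cis HPR skin and of 0.301 in control skin. In control skin 61.1% of the sparse and 55.8% of the other spots were classed as without muscle nearby (fewer than 3 muscle-rich spots). With only band spots and spots without muscle nearby, a setting chosen after seeing the data, the control muscle ratio was 1.93. Whether position set the control ratio was not tested. Immediate early and heat shock genes had a ratio of 1.46 in UVR and 0.579 in retinol skin, from 33 and 17 sparse UMIs. The differences between sections were not tested, since each group was 1 section.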

How the results depend on the processing

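The study has 1 section per group, so no paired analysis was possible because no group has a second replicate. Among the values that answer a comparison, 218 were kept in direction and size and 182 moved by more than their interval, or, for counts, by over 1.5 times. Below, higher and lower genes are those at least 2-fold higher or lower in sparse than in other spots (or in the first than in the second section), and list ratios are the share in sparse over that in other spots. Of the other values 1016 were kept, 378 moved and 78 reversed. The cause of each change was not tested unless it follows from the setting itself, as fewer UMIs and genes do at a limit of 100 UMIs, on 1 image side or under a higher minimum.

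With a limit of 100 UMIs the percent of spots counted as sparse was 7.53 in control, 17.7 in UVR, 15.4 in retinol and 14.3 in 9-cis HPR. The percent of sparse neighbours was 44.0 in control, 51.3 in UVR, 54.7 in retinol and 54.9 in 9-cis HPR. Higher genes numbered 0 in control, 7 in UVR, 4 in retinol and 9 in 9-cis HPR, lower genes 7 in control, 35 in UVR, 53 in retinol and 39 in 9-cis HPR and genes past 2-fold in all 4 sections 0 higher and 3 lower. Between sections, higher genes numbered 9 in UVR over control, 10 in retinol over UVR, 8 in 9-cis HPR over UVR and 12 in 9-cis HPR over retinol and lower genes 3 in UVR over control, 12 in 9-cis HPR over UVR and 6 in 9-cis HPR over retinol. List ratios turned to plasma cell 0.479 in control. With 150 UMIs the percent of spots counted as sparse was 16.8 in control, 24.9 in UVR, 23.9 in retinol and 26.5 in 9-cis HPR. With 250 UMIs the percent of spots counted as sparse was 36.1 in control, 35.8 in UVR, 36.7 in retinol and 41.2 in 9-cis HPR. With 300 UMIs the percent of spots counted as sparse was 43.4 in control, 38.3 in UVR, 40.3 in retinol and 45.6 in 9-cis HPR. The percent of sparse neighbours was 65.7 in control, 72.2 in UVR, 73.5 in retinol and 75.4 in 9-cis HPR. Higher genes numbered 44 in control, 47 in UVR, 54 in retinol and 82 in 9-cis HPR, lower genes 78 in control and 187 in retinol and genes past 2-fold in all 4 sections 8 higher and 18 lower. Between sections, higher genes numbered 38 in 9-cis HPR over retinol and lower genes 49 in 9-cis HPR over UVR and 43 in 9-cis HPR over retinol. With under 100 detected genes in place of a UMI limit the percent of spots counted as sparse was 11.6 in control, 22.1 in UVR, 20.2 in retinol and 21.1 in 9-cis HPR.

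With a minimum expected count of 5, higher genes numbered 47 in control, 64 in UVR, 62 in retinol and 85 in 9-cis HPR and genes past 2-fold in all 4 sections 13 higher. With a minimum of 20, higher genes numbered 2 in control, 5 in UVR, 5 in retinol and 14 in 9-cis HPR, lower genes 23 in control, 48 in UVR, 77 in retinol and 50 in 9-cis HPR and genes past 2-fold in all 4 sections 1 higher. With a minimum of 50 UMIs between sections, higher genes numbered 19 in UVR over control, 7 in retinol over UVR, 12 in 9-cis HPR over UVR and 7 in 9-cis HPR over retinol and lower genes 2 in UVR over control, 13 in retinol over UVR, 11 in 9-cis HPR over UVR and 6 in 9-cis HPR over retinol. With no minimum and 1 count added to each sum, higher genes numbered 8065 in control, 10336 in UVR, 9475 in retinol and 8944 in 9-cis HPR, lower genes 156 in control, 222 in UVR, 296 in retinol and 225 in 9-cis HPR and genes past 2-fold in all 4 sections 5170 higher. Between sections, higher genes numbered 523 in UVR over control, 2011 in retinol over UVR, 805 in 9-cis HPR over UVR and 798 in 9-cis HPR over retinol and lower genes 1618 in UVR over control, 771 in retinol over UVR, 2220 in 9-cis HPR over UVR and 2045 in 9-cis HPR over retinol. Adding 1 count to sums of unequal totals raises the ratio of unseen genes in the smaller sum by construction.

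With scaling by the median of ratios, higher genes numbered 20 in control, 41 in UVR, 54 in retinol and 51 in 9-cis HPR and lower genes 59 in UVR and 71 in retinol. With totals that left out the 20 most abundant genes, higher genes numbered 7 in control and 19 in 9-cis HPR and genes past 2-fold in all 4 sections 3 higher. By list, ratios turned to basal keratinocyte 1.64 in UVR and 1.19 in 9-cis HPR. A list was clearly lower in this many sections: 0 for the basal keratinocyte list. With every spot weighted alike, higher genes numbered 3 in control, 3 in UVR, 8 in retinol and 11 in 9-cis HPR, lower genes 44 in 9-cis HPR and genes past 2-fold in all 4 sections 0 higher and 0 lower. The ratio of list shares changed direction, to skeletal muscle 0.601 in UVR, 0.441 in retinol and 0.540 in 9-cis HPR. The count of sections clearly higher was 0 for the skeletal muscle list. In another setting the summed other counts were drawn down at random to the total of the sparse sum. This does not match the depth of single spots, and it changes which genes reach the minimum expected count. Higher genes then numbered 32 in control, 72 in UVR, 71 in retinol and 87 in 9-cis HPR and genes past 2-fold in all 4 sections 16 higher. Sections with a list clearly higher were 2 for the red blood cell list. On the left image side the percent of spots counted as sparse was 26.2 in UVR and 29.2 in 9-cis HPR. Higher genes numbered 4 in control, 6 in UVR, 5 in retinol and 15 in 9-cis HPR, lower genes 16 in control, 47 in UVR and 79 in retinol and genes past 2-fold in all 4 sections 1 higher. List ratios turned to skeletal muscle 0.780 in UVR and 0.821 in retinol. A list was clearly higher in this many sections: 1 for the skeletal muscle list. On the right image side the percent of spots counted as sparse was 36.0 in UVR and 39.9 in 9-cis HPR. Higher genes numbered 4 in control, 8 in retinol and 17 in 9-cis HPR, lower genes 29 in control, 51 in UVR, 70 in retinol and 47 in 9-cis HPR and genes past 2-fold in all 4 sections 0 higher and 7 lower.

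The remaining alternatives were chosen after seeing the data. With only band spots and spots without muscle nearby, higher genes numbered 3 in control and 15 in 9-cis HPR, lower genes 11 in control and genes past 2-fold in all 4 sections 1 higher and 1 lower. Between sections, higher genes numbered 13 in UVR over control and 24 in 9-cis HPR over UVR and lower genes 18 in UVR over control and 13 in 9-cis HPR over retinol. By list, ratios turned to skeletal muscle 1.93 in control. Log2 ratios of single sections turned to Mylpf 0.62 in control. With other spots limited to those under 500 UMIs, higher genes numbered 3 in control and 4 in UVR, lower genes 6 in control, 5 in UVR, 27 in retinol and 47 in 9-cis HPR and genes past 2-fold in all 4 sections 0 higher and 0 lower. The ratio of list shares changed direction, to fibroblast 0.945 in UVR, housekeeping 0.959 in UVR and 0.898 in retinol, basal keratinocyte 1.05 in 9-cis HPR, suprabasal keratinocyte 1.31 in 9-cis HPR, stress keratin 1.17 in UVR and 1.10 in 9-cis HPR, skeletal muscle 0.986 in UVR, 0.451 in retinol and 0.418 in 9-cis HPR. The count of sections clearly higher was 2 for the plasma cell list, 2 for the macrophage list, 1 for the red blood cell list, 2 for the housekeeping list and 0 for the skeletal muscle list. Sections with a list clearly lower were 2 for the basal keratinocyte list, 0 for the suprabasal keratinocyte list, 1 for the cornified layer list, 0 for the stress keratin list and 2 for the pooled keratinocyte list. Median log2 ratios turned to Dmkn 0.098, Rnf225 0.032, Fth1 -0.064 and Tnfaip2 -0.064. Log2 ratios of single sections turned to Tnfaip2 -0.65 in UVR and Tmsb4x -0.013 in UVR. Without keratin-rich spots and spots within 2 steps of them, higher genes numbered 45 in UVR and 37 in retinol and genes past 2-fold in all 4 sections 2 higher and 32 lower. List ratios turned to basal keratinocyte 1.94 in control, 2.03 in UVR and 1.42 in 9-cis HPR, suprabasal keratinocyte 2.02 in control, 2.00 in UVR and 2.40 in 9-cis HPR, cornified layer 1.94 in control, 2.38 in UVR, 1.90 in retinol and 2.26 in 9-cis HPR, stress keratin 3.36 in UVR, 1.51 in retinol and 2.23 in 9-cis HPR, skeletal muscle 0.230 in UVR, 0.193 in retinol and 0.288 in 9-cis HPR, pooled keratinocyte 2.02 in control, 2.34 in UVR, 1.07 in retinol and 1.77 in 9-cis HPR. A list was clearly higher in this many sections: 0 for the skeletal muscle list. The count of sections clearly lower was 1 for the basal keratinocyte list, 0 for the suprabasal keratinocyte list, 0 for the cornified layer list, 0 for the stress keratin list and 0 for the pooled keratinocyte list. Median log2 ratios turned to Ankrd35 1.36, Nccrp1 1.74, Lor 1.875, Lypd5 1.09, Dmkn 0.67, Rnf225 1.18 and Car3 -0.615. Log2 ratios of single sections turned to Ankrd35 0.88 in control and Car3 -0.17 in retinol.

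With the groups of each area exchanged, the percent of spots counted as sparse was 27.1 in UVR, 34.5 in retinol and 30.9 in 9-cis HPR. Between sections, higher genes numbered 38 in retinol over UVR. Log2 ratios that turned under this reading were, for UVR over control Ttn -3.97, Hspb6 -2.85, Got2 -2.75, Cst6 2.97, Krt10 2.76, Anxa9 2.55 and Nrtn 2.55, for retinol over UVR Cfd -0.11, Scd1 -1.11, Pfkm 0.95 and Pgam2 1.43, for 9-cis HPR over UVR Polr2i -0.72, Atp5b 0.28, Wee1 0.088 and Mylpf 1.48, for 9-cis HPR over retinol Krtdap -2.91, Tomm40 -1.97, Actr1a -1.77, Ciz1 -1.77, Col5a2 2.62, Lipe 2.26, Ndrg1 2.05 and Scd1 1.86.

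Depth limits the gene comparisons, since at most 572 genes could be compared in a section. Placing spots by a mark of 5% or 12% in place of 8%, also chosen later, kept the fibroblast and plasma cell lists higher in the band in all 4 sections. Several intervals included 1. They were control fibroblast at 12% (0.855 to 9.05), UVR fibroblast at 5% (0.925 to 1.99) and 12% (0.977 to 2.17), and control plasma cell at 5% (0.866 to 33.0) and 12% (0.598 to 159.5).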
